A study of Mus musculus with 120 samples.

Results

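The 6 genes described here encode the receptors for immunoglobulin G (IgG) of the mouse and the chains they work with: Fcgr1, Fcgr3, Fcgr4, Fcgr2b, Fcer1g and Fcgrt. They were taken by gene symbol from the 55487 genes that both deposited count tables hold, and each of the 6 had 1 entry in each table and passed the filter on low counts in all 22 comparisons. The samples were bulk RNA sequencing libraries of the immunological niche (IN), a porous poly(caprolactone) scaffold placed under the skin that fills with host cells, vessels and matrix and can be taken out and replaced as a biopsy. The hosts were female mice implanted at 4 weeks of age. NOD/ShiLtJ (NOD) mice develop autoimmune diabetes, and were divided into progressors, which became hyperglycemic, and nonprogressors, which did not. NOR/LtJ (NOR) mice share the diabetogenic major histocompatibility haplotype of NOD and stay free of diabetes. The labels name no transgene and no drug. The 120 libraries came from 10 progressors (58 libraries), 11 nonprogressors (39) and 5 NOR mice (23), in 2 sequencing batches.

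Batch 1 (74 libraries) held 5 progressors at 6 weeks of age, at 5, 3 and 1 weeks before onset and at onset, 4 nonprogressors and 5 NOR mice every 4 weeks from 6 to 22 weeks of age, with 1 library missing at 6 weeks (NOR mouse 3) and 1 at 18 weeks (NOR mouse 2), and 6 nonprogressor libraries labelled by days after implantation and a mouse number (1 or 2) in place of an age, which were not assigned to the numbered nonprogressors above and entered no test. Batch 2 (46 libraries) held 5 other progressors at the same times, 8 progressor libraries from 7 weeks before onset, 7 nonprogressors at 6 weeks and 6 of these at 14 weeks. Of the libraries from 7 weeks before onset, 4 came from mice whose other libraries were in batch 1. NOR mice were in batch 1 only, so strains were compared in that batch, and every other comparison was made within a batch. The ages of progressors before onset are not in the labels, so age and time to onset cannot be told apart in these mice. Per the study's methods, scaffolds were removed and replaced weekly from 6 weeks of age. The 6-week libraries therefore came from scaffolds of the first implantation, and later libraries followed earlier removals in the same mouse. Age, time of a scaffold in place and earlier surgery cannot be told apart in comparisons with 6 weeks.

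IgG receptors join antibody to the behavior of innate cells. Fcgr1 (CD64) binds monomeric IgG with high affinity, whereas Fcgr3 (CD16) and Fcgr4 bind immune complexes. All 3 are activating receptors of macrophages, monocytes and, in part, neutrophils, natural killer and mast cells, and they reach the surface and signal through the shared gamma chain encoded by Fcer1g, whose activation motif recruits the kinase Syk. Fcgr2b (CD32B) is the only inhibitory member and recruits the phosphatase SHIP-1, encoded by Inpp5d. It is the sole classical IgG receptor of B cells and is also found on macrophages and other myeloid cells. Fcgrt encodes the heavy chain of the neonatal receptor FcRn, which pairs with B2m, binds IgG and albumin in acid endosomes and returns them to the cell surface, and is found in endothelium, macrophages and other cells.

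Fcgr2b, Fcgr4, Fcgr3 and Fcer1g lie together on chromosome 1 (GRCm38, GENCODE M21 gene bounds), at 170958617-170976547 on the minus strand, 171018920-171029761 on the plus strand, 171051174-171064935 on the minus strand and 171229572-171234365 on the minus strand. Fcgr1 lies on chromosome 3 at 96282909-96293969 (minus strand) and Fcgrt on chromosome 7 at 45092990-45103851 (minus strand). All 6 are protein coding. Printed here are the promoters of Fcgr1, which fell in batch 2, of Fcgr2b, which rose in batch 1, and of Fcgr4, an activating receptor gene beside Fcgr2b. Each is the RefSeq stretch of 300 bases around the start site (GRCm38.p6, 5′ to 3′ on the gene's own strand). The stretches are chr3:96293920-96294219 (minus strand) for Fcgr1, chr1:171018676-171018975 (plus strand) for Fcgr4 and chr1:170976022-170976321 (minus strand) for Fcgr2b. Capitals mark matches to GAGGAA, the short core of the site of the myeloid factor PU.1, and to TTCNNNGAA, the gamma-activated site bound by STAT factors, searched on both strands.
Fcgr1: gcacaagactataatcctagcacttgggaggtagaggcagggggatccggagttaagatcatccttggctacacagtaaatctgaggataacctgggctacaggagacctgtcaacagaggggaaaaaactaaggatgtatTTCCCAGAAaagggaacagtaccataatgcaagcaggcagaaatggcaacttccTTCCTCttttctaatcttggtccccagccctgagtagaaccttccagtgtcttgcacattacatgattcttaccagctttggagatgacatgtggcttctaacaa
Fcgr4: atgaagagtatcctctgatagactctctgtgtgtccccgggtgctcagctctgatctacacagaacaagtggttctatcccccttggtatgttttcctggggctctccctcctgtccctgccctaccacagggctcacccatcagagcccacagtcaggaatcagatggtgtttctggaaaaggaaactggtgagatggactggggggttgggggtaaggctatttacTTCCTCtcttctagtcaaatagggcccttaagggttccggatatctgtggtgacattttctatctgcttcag
Fcgr2b: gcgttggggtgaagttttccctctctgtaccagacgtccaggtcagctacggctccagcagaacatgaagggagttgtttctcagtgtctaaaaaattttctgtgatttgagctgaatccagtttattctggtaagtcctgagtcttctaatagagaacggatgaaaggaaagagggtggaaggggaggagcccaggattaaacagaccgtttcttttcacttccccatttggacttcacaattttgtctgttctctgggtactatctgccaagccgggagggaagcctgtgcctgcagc
GAGGAA, which all of the capitals TTCCTC mark on the other strand, was found for Fcgr1, Fcgr3 and Fcgr4 and in 28.28% of the 32851 promoters of the table. The longer GAGGAAGT, which contains it, was found for Fcgr4 alone among the members and in 3.202% of all promoters. TTCNNNGAA was found for Fcgr1 alone among the members and in 8.298% of all promoters. None of the 3 was found in the windows of Fcgr2b, Fcer1g and Fcgrt. The windows of Fcgr2b and Fcgr3 lie wholly inside the gene bounds given above, so the outermost starts of these 2 genes were not searched. The sequence is that of the C57BL/6J reference, from which NOD and NOR may differ.

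Library totals ranged from 4722396 to 56185434 counts in batch 1 and from 29029239 to 43880986 in batch 2. The lowest total, 4722396, was that of nonprogressor 3 at 18 weeks. The library of NOR mouse 5 at 18 weeks stood furthest apart. It had 85.7% of its 8616431 counts on 1 ribosomal RNA gene and 0 counts of Fcgr1 and of Fcgr4. The single members' tests printed here that compare its group are given with and without it. It also entered the estimate of the spread shared by the other single-library tests of batch 1. For those tests no fit without this library alone is given. At 22 weeks the nonprogressor libraries had 12.8 to 30.5% of their counts on the gene Rn7s2, and the NOR libraries 4.89 to 8.64%. Macrophage markers (8 genes, among them Adgre1, Csf1r and C1qa) summed to between 1696 and 3497 CPM (counts scaled to the adjusted total of each library) in batch 1 and to between 2061 and 4448 CPM in batch 2, and no member of that list was absent from a whole group. B cell markers (5 genes) summed to between 0.420 and 40.5 CPM in batch 1 and between 0.682 and 13.3 CPM in batch 2. In bulk tissue, a smaller number of cells of a type and less RNA per cell cannot be told apart.

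Per exonic length of the gene the order of the 6 genes was the same in both batches. In RPKM, which is CPM divided by exonic length in kilobases, medians in batch 1 were 78.6 for Fcgr3, 59.0 for Fcer1g, 40.9 for Fcgrt, 20.0 for Fcgr2b, 10.1 for Fcgr4 and 1.56 for Fcgr1, over 74 libraries. Medians in batch 2 were 85.8 for Fcgr3, 63.7 for Fcer1g, 52.7 for Fcgrt, 20.7 for Fcgr2b, 11.2 for Fcgr4 and 2.64 for Fcgr1, over 46 libraries. Thus the low-affinity activating receptor Fcgr3 and the shared chain stood at the top and the high-affinity receptor Fcgr1 at the bottom. Fcgr3 exceeded Fcer1g in 72 of 74 and 45 of 46 libraries, and Fcgr4 exceeded Fcgr1 in 73 of 74 and 46 of 46. The neighbors Fcer1g and Fcgrt were less clearly ordered, with Fcer1g higher in 57 of 74 libraries and in 27 of 46. Fcgrt exceeded Fcgr2b in 63 of 74 and 41 of 46 libraries, and Fcgr2b exceeded Fcgr4 in 61 of 74 and 40 of 46. The order of Fcgrt and Fcgr2b depends on the lengths used, 2102 and 5790 bases. In CPM, without division by length, their medians were 86.0 and 116 in batch 1 and 111 and 120 in batch 2. Of the 50-base stretches of the Fcgr3 transcripts, 9.579% also occur in Fcgr2b, so the split of reads between these 2 genes is partly an estimate, whereas Fcgr1 shares none with another gene.

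**Figure D1:**
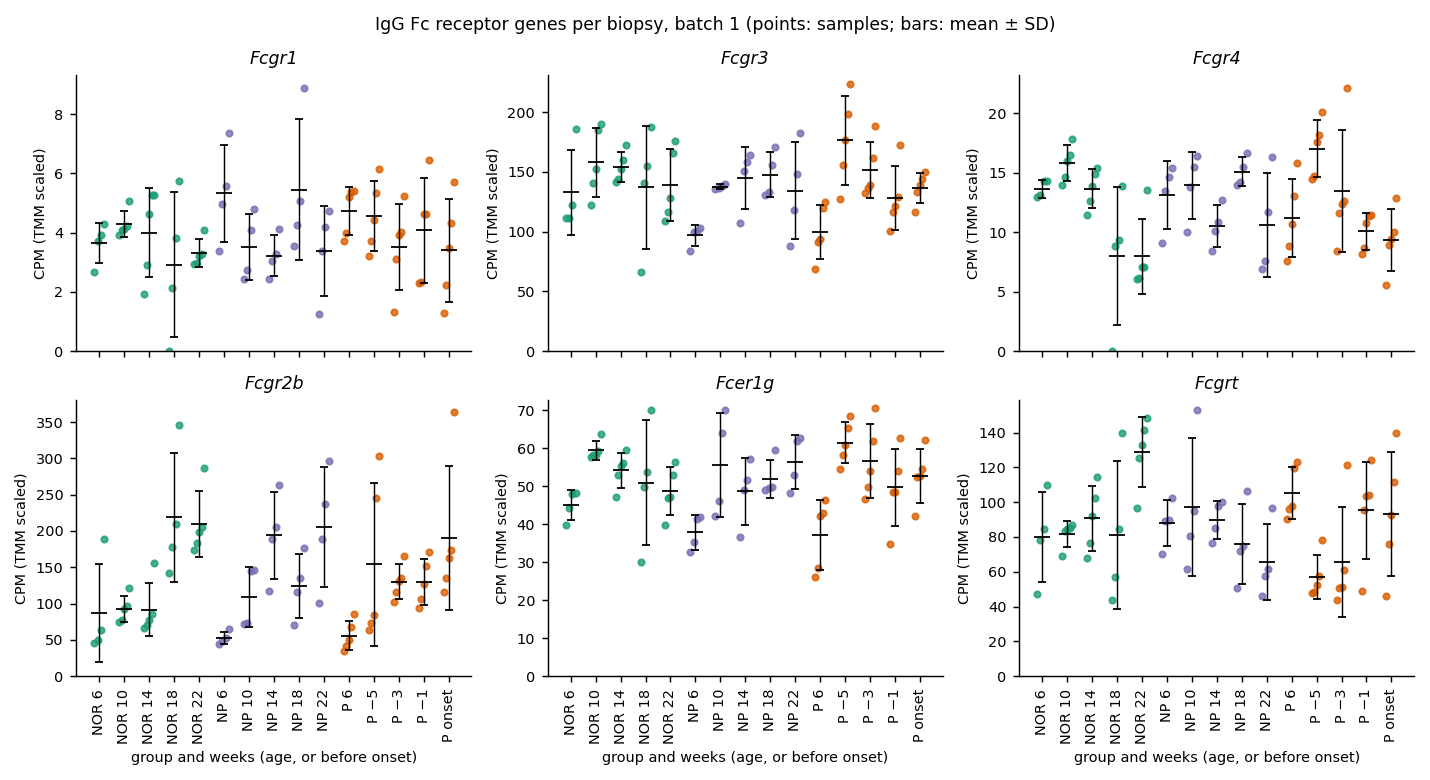
CPM (TMM scaled) of each gene in every batch 1 library linked to a mouse; points are libraries of NOR, nonprogressor (NP) and progressor (P) mice at the ages or weeks before onset named on the horizontal axis, and bars are mean ± SD. Fcgr2b lay between 35.2 and 85.2 CPM in progressors at 6 weeks and between 63.9 and 364 CPM later, and Fcgr1 stayed at or under 8.89 CPM in every library.

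The strains were compared to find whether the IN of mice at risk differs in these receptors from that of resistant mice. With the libraries of each mouse summed, 0 of the 6 genes differed between 9 NOD and 5 NOR mice in edgeR's quasi-likelihood test with Benjamini-Hochberg adjustment over 23387 genes, of which 8.98% passed. None passed an unadjusted p of 0.05, and DESeq2 also called 0. The log2 fold change of NOD over NOR was 0.05 (95% interval -0.18 to 0.28) for Fcgr1, -0.15 (-0.31 to 0.02) for Fcgr3 and -0.03 (-0.20 to 0.14) for Fcgr4. It was -0.02 (-0.36 to 0.33) for the inhibitory Fcgr2b, -0.08 (-0.25 to 0.08) for Fcer1g and -0.15 (-0.34 to 0.03) for Fcgrt. Adjusted p ranged from 0.331 for Fcgr3 to 0.975 for Fcgr2b. The widest of these intervals was that of Fcgr2b. Without the 18-week library of NOR mouse 5 the 6 values lay between -0.15 and 0.05. Beside this, 4 of 8 macrophage markers (Mertk, Csf1r, C1qa and C1qb) and 4 of 5 mast cell markers were lower in NOD mice, with medians of -0.18 and -1.43 against -0.00161 for all genes, and their part in the values of the 6 genes was not tested.

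Of the genes that start within 500 kb of a member, few passed in this comparison, beside 8.98% of all genes tested. On chromosome 1, 0 of the 43 tested neighbors of the block from Fcgr2b to Fcer1g did. Near Fcgr1, 1 of 58 did (Anp32e, log2 fold change 0.15), and near Fcgrt, 4 of 64 did: Ppfia3 was higher in NOD (0.49), and Vrk3 (-0.22), Tbc1d17 (-0.15) and the interferon regulatory factor Irf3 (-0.13) were lower. B2m, the light chain that pairs with the Fcgrt product, was lower in NOD (log2 fold change -0.30, SE 0.06, adjusted p 0.0086 by edgeR).

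Nonprogressors and NOR mice were also compared at matched ages. At 6, 10, 14 and 18 weeks 0 of the 6 genes passed, beside 1.66%, 1.85%, 2.02% and 3.75% of 21131 genes in edgeR's test. At an unadjusted p of 0.05, 1 passed at 6 weeks, 0 at 10, 1 at 14 and 2 at 18 weeks, and DESeq2 called 0 at each of these ages. At 14 weeks Fcgr2b was 189, 117, 206 and 264 CPM in the 4 nonprogressors and 78.0, 156, 86.0, 66.9 and 70.9 CPM in the 5 NOR mice. NOR mouse 2 alone lay within the nonprogressor range, and the log2 fold change of 1.07 (SE 0.37) had an adjusted p of 0.164. At 18 weeks the order was turned, with a log2 fold change of -0.83 (SE 0.40, adjusted p 0.293), and -0.91 (adjusted p 0.382) without the library of NOR mouse 5. Fcgr4, at 14.2, 14.0, 16.7 and 15.5 CPM in nonprogressors at 18 weeks, was 9.33, 8.86, 13.8 and 0 CPM in NOR mice 1, 3, 4 and 5. All nonprogressors were higher, with a log2 fold change of 0.68 (adjusted p 0.225), and 0.49 (adjusted p 0.492) without NOR mouse 5.

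At 22 weeks 1 of the 6 genes passed, beside 4.25% of all genes lower and 7.39% in either direction. Fcgrt was 61.8, 45.9, 96.7 and 57.4 CPM in the 4 nonprogressors and 133, 142, 126, 96.6 and 148 CPM in the 5 NOR mice. Nonprogressor mouse 3 and NOR mouse 4 were at the same level, and the other nonprogressors were lower than all NOR mice. This was a log2 fold change of -0.98 (SE 0.29, adjusted p 0.0242 by edgeR's quasi-likelihood test). It stayed past the threshold in 4 of the 9 fits that each left out 1 mouse, and adjusted p was 0.0590, 0.0626, 0.0788, 0.103 and 0.0837 without NOR mice 1 and 2 and nonprogressors 1, 2 and 4. In the same comparison 3 of 5 fibroblast markers and 4 of 5 mast cell markers were lower. The macrophage markers C1qa and C1qb and the dendritic cell marker Cd209a also passed, among others, with directions not given here. With 1 mouse left out at a time they held in 8, 9 and 9 of 9 fits, and their part was not tested. Summed mast cell markers lay between 8.05 and 20.9 CPM in nonprogressors and between 38.2 and 145 CPM in NOR mice, and their part in the difference of Fcgrt was not tested. The libraries compared also differed in composition. Nonprogressors 1 to 4 had 12.8, 19.2, 24.3 and 30.5% of their counts on Rn7s2, and the 5 NOR mice 4.89 to 8.64%. The part of this in the difference of Fcgrt was not tested.

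At 6 weeks, before any mouse was diabetic, progressors and nonprogressors were compared to find whether the receptors separate mice by outcome. In batch 1, 0 of the 6 genes passed (0.0521% of all genes), and in batch 2, 0 passed (0% of 21808 genes). None had an unadjusted p under 0.05 in either batch, and DESeq2 called 0 in both. The log2 fold changes of progressors over nonprogressors lay between -0.23 and 0.26 in batch 1 (5 against 4 mice) and between -0.06 and 0.22 in batch 2 (5 against 7 mice). For Fcgr2b the interval ran from -0.65 to 0.82 in batch 1 and from -0.42 to 0.86 in batch 2, and differences within these intervals were not detectable with these numbers of mice.

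From 6 weeks onward in batch 1, the inhibitory receptor Fcgr2b, the activating receptor Fcgr3 and the shared chain Fcer1g rose in progressors and in nonprogressors. In progressors 3 of the 6 genes passed as higher, beside 11.6% of 21131 genes higher and 24.9% in either direction. In nonprogressors the same 3 passed, beside 5.94% higher and 12.1% in either direction. The 2 comparisons share no sample, but both come from 1 fit with a shared estimate of the spread. In NOR mice 0 passed, beside 0.0994% of all genes, with 1 member under an unadjusted p of 0.05 and 0 called by DESeq2.

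Fcgr2b in progressors was 50.3, 67.1, 35.2, 85.2 and 41.7 CPM at 6 weeks (mice 1 to 5), and 63.9 at the lowest, 133 at the median and 364 CPM at the highest in the 20 later libraries. Of these, 17 exceeded all 6-week libraries, and the level was higher later in 5 of 5 mice. This was a log2 fold change of 1.42 (SE 0.31, adjusted p 0.000685 by edgeR's test, a 2.67-fold change). In nonprogressors it was 44.2, 64.4, 52.6 and 49.0 CPM at 6 weeks and 70.4, 145 and 297 CPM at the lowest, median and highest of the 16 later libraries. All 16 lay above the 6-week libraries, and the log2 fold change was 1.53 (SE 0.35, adjusted p 0.00304). In NOR mice it was 50.1, 63.4, 188 and 45.8 CPM at 6 weeks (mice 1, 2, 4 and 5) and 66.9, 142 and 346 CPM at the lowest, median and highest of 19 later libraries. NOR mouse 4 was far above the others at 6 weeks, and 5 of 19 later libraries lay above it. In these mice the log2 fold change was 0.71 (SE 0.33, adjusted p 0.665), 0.72 (adjusted p 0.572) without the 18-week library of NOR mouse 5, and 1.31 (adjusted p 0.170) without NOR mouse 4.

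Within NOR mice the Fcgr2b level stood apart by age. At 6, 10 and 14 weeks its median was 56.8, 92.8 and 78.0 CPM, and at 18 and 22 weeks 193 (209 without mouse 5) and 198 CPM. All 9 libraries at 18 and 22 weeks lay between 142 and 346 CPM, and of the 14 earlier ones the 2 at 156 (mouse 2, 14 weeks) and 188 CPM (mouse 4, 6 weeks) reached that range. No test of these ages against each other was run. The change from 6 weeks to the later ages did not pass as different between nonprogressors and NOR mice. The difference of log2 fold changes was 0.82 (95% interval -0.04 to 1.69, adjusted p 0.850 by edgeR). It was 0.81 (adjusted p 0.778) without the 18-week library of NOR mouse 5, a fit chosen after seeing the data. Without NOR mouse 4 it was 0.22. In that comparison of changes 0 of the 6 genes and 0% of all genes passed, 0 members had an unadjusted p under 0.05 and DESeq2 called 0. The change also did not pass as different between progressors and nonprogressors (0 of 6 genes, 0.00946% of all genes), with -0.12 (95% interval -0.94 to 0.71) for Fcgr2b, and 0 members were under an unadjusted p of 0.05 or called by DESeq2.

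Fcgr3 in progressors was 124, 91.3, 93.6, 120 and 68.6 CPM at 6 weeks and lay between 101 and 224 CPM later, with 16 of 20 later libraries above all 6-week ones. Its log2 fold change was 0.57 (SE 0.15, adjusted p 0.00405 by edgeR), and 0.43 (adjusted p 0.0648) without progressor 5. In nonprogressors 15 of 16 later libraries lay above all 6-week libraries, which were 100, 103, 99.6 and 84.1 CPM. The log2 fold change was 0.54 (SE 0.17, adjusted p 0.0252), and adjusted p was 0.154 and 0.190 without nonprogressors 1 and 4. In NOR mice the log2 fold change was 0.16 (SE 0.16, adjusted p 0.886), and 0.20 (adjusted p 0.758) without the 18-week library of mouse 5. The difference from nonprogressors was 0.38 (95% interval -0.06 to 0.82, adjusted p 0.860), and 0.33 (adjusted p 0.788) without that library.

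Fcer1g followed the same course. It was 46.3, 26.1, 42.3, 42.9 and 28.6 CPM in progressors at 6 weeks, and 18 of 20 later libraries, which lay between 34.8 and 70.6 CPM, were higher than all of these. In progressors the log2 fold change was 0.56 (SE 0.13, adjusted p 0.000806). In nonprogressors it was 0.49 (SE 0.14, adjusted p 0.0165), with 15 of 16 later libraries above all 6-week libraries (32.8, 41.9, 41.4 and 35.3 CPM) and adjusted p of 0.209, 0.0560 and 0.0745 without nonprogressors 1, 3 and 4. In NOR mice it was 0.26 (SE 0.14, adjusted p 0.727; 0.28, adjusted p 0.572, without the 18-week library of mouse 5), positive in 4 of 4 mice that had a 6-week library. When libraries were scaled by their totals alone, the calls of Fcgr3 and Fcer1g did not pass in either group, with adjusted p of 0.175 and 0.131 in progressors and of 0.487 and 0.544 in nonprogressors.

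The other 3 genes did not pass over time in batch 1. Fcgrt in progressors was 120, 123, 98.0, 90.5 and 95.9 CPM at 6 weeks and 44.0, 68.6 and 140 CPM at the lowest, median and highest later. Of the 20 later libraries 12 lay below all 6-week libraries and 2 above, with a log2 fold change of -0.47 (SE 0.20, adjusted p 0.0757). It was -0.12 (adjusted p 0.775) in nonprogressors and 0.22 (adjusted p 0.896) in NOR mice, or 0.12 (adjusted p 0.918) without the 18-week library of mouse 5. Fcgr1, at or under 8.89 CPM in all libraries of batch 1, had log2 fold changes of -0.29 (adjusted p 0.442) in progressors and -0.49 (adjusted p 0.261) in nonprogressors. It was lower later in 5 of 5 progressors and in 4 of 4 nonprogressors. Fcgr4 had a log2 fold change of 0.11 (adjusted p 0.720) in progressors.

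Markers of other cells moved in these comparisons. All 5 fibroblast markers fell in progressors and 2 of 5 (Dcn and Lum) in nonprogressors, and summed fibroblast markers were between 25722 and 50004 CPM in progressors at 6 weeks and between 6484 and 26114 CPM later. Of 7 tested neutrophil markers only Mmp9 passed, as lower, in both groups, while the summed neutrophil markers had a median of 763 CPM in progressors at 6 weeks and of 63.1 to 245 CPM at the later times, and were 680 to 1658 CPM in nonprogressors at 6 weeks and 50.8 to 85.4 CPM at 14 weeks. Fcgr2b correlated with them at r = -0.73 in batch 1 (73 libraries) and -0.58 in batch 2 (46), and with monocyte markers at r = 0.56 and 0.33. Of 4 monocyte markers Chil3 alone passed, as higher, in progressors and 0 in nonprogressors. All 4 keratinocyte markers passed as lower in nonprogressors, which rests on 1 library: that of mouse 4 at 6 weeks had 444 CPM of them and the other 3 had 0.653 to 4.36 CPM, and 0 of 4 passed without mouse 4. In NOR mice 0 of the markers in any of the 15 lists passed. Macrophage markers moved less, with 0 of 8 past the threshold in progressors and 1 of 8 (Mrc1, higher) in nonprogressors. The libraries share mice and times, and the part of these changes in the rise of Fcgr2b, Fcgr3 and Fcer1g was not tested.

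**Figure D2:**
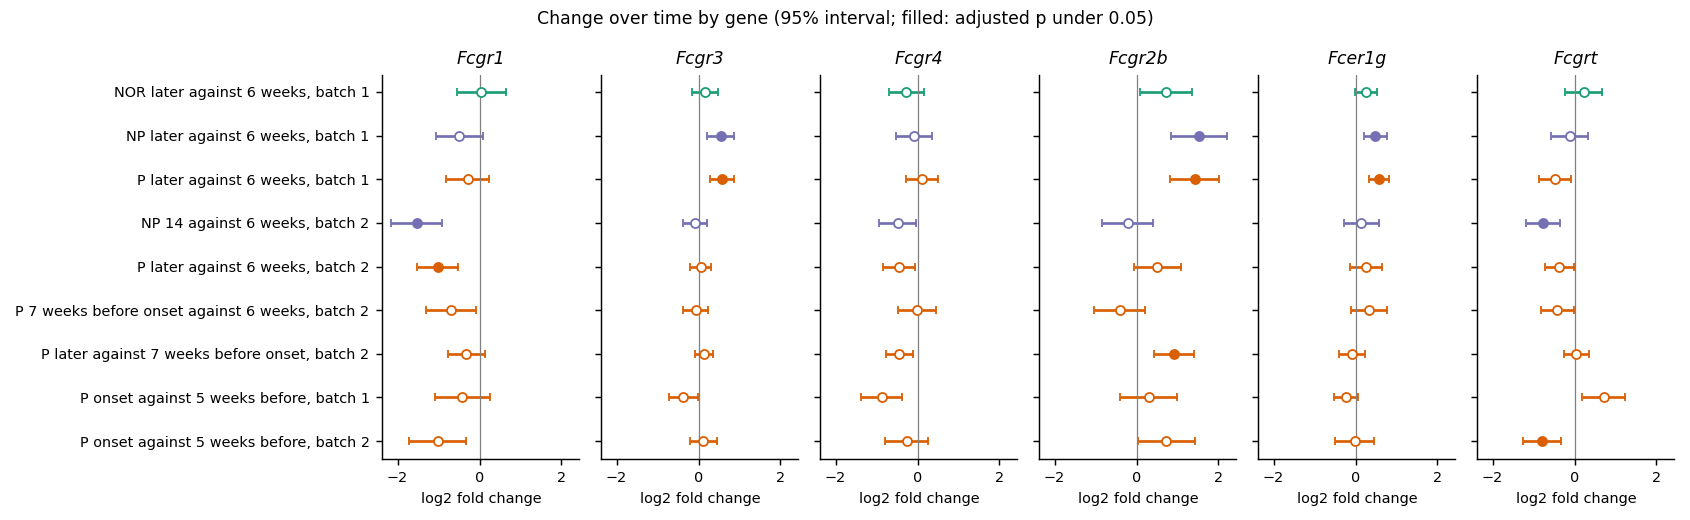
Log2 fold change of each gene over time, with 95% intervals, in NOR (green), nonprogressor (purple) and progressor (orange) mice, 1 line per comparison; filled points had an adjusted p under 0.05 in edgeR's test. In batch 1 Fcgr2b, Fcgr3 and Fcer1g are filled to the right of 0 in both NOD groups, and in batch 2 Fcgr1 is filled to the left of 0 in both.

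In batch 2 Fcgr1, the high-affinity receptor, passed as lower in progressors and in nonprogressors, and Fcgrt passed as lower in nonprogressors. In progressors 1 of the 6 genes passed, beside 17.1% of 21808 genes lower and 34.1% in either direction, and in nonprogressors from 6 to 14 weeks 2 passed, beside 13.4% lower and 29.1% in either direction. With so much of the tissue changed, 1 or 2 of 6 genes is near the background.

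Fcgr1 in progressors was 8.42, 7.96, 13.8, 16.8 and 17.2 CPM at 6 weeks (mice 6 to 10) and 2.49, 6.05 and 19.2 CPM at the lowest, median and highest of the 20 later libraries. Of these, 17 were below all 6-week libraries, 1 (mouse 8 at 5 weeks before onset) was above them, and the level was lower later in 5 of 5 mice. This gave a log2 fold change of -1.03 (SE 0.26, adjusted p 0.0020 by edgeR). In nonprogressors it was 10.1, 12.1 and 21.3 CPM at the lowest, median and highest of 7 libraries at 6 weeks and 3.13, 4.02 and 6.87 CPM at 14 weeks. The 2 ages did not overlap, all 6 mice with both ages were lower at 14 weeks, and the log2 fold change was -1.53 (SE 0.32, adjusted p 0.000444). The change of Fcgr1 did not pass as different between the groups (0.51, 95% interval -0.31 to 1.32), and 0 of the 6 genes and 0% of all genes did, 0 of the members at an unadjusted p of 0.05 and 0 by DESeq2.

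Fcgrt also fell in nonprogressors of batch 2, from 115, 140 and 179 CPM (lowest, median and highest of 7) at 6 weeks to 61.6, 87.4 and 103 CPM (of 6) at 14 weeks. The ages did not overlap, and the log2 fold change was -0.77 (SE 0.21, adjusted p 0.00485 by edgeR). In progressors Fcgrt had a log2 fold change of -0.38 (SE 0.18, adjusted p 0.105), and of -0.61 (adjusted p 0.0129) without progressor 7, whose 6-week library was at 68.6 CPM while the other 4 were at 139 to 196 CPM. The difference between the groups was 0.40 (95% interval -0.15 to 0.95, adjusted p 0.996). Fcgr4 had log2 fold changes of -0.46 (SE 0.20, adjusted p 0.0756) in progressors and of -0.49 (SE 0.23, adjusted p 0.111) in nonprogressors. Without progressors 6 and 8, in turn, it was -0.64 (adjusted p 0.0294) and -0.58 (adjusted p 0.0448).

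Fcgr2b, Fcgr3 and Fcer1g, which rose in batch 1, did not pass in batch 2. Fcgr2b in progressors was between 118 and 149 CPM at 6 weeks, and later between 80.0 and 438 CPM, with 13 of 20 later libraries above all 6-week libraries and 6 below all of them. Its log2 fold change was 0.51 (SE 0.29, adjusted p 0.176), positive in 5 of 5 mice. In nonprogressors it was 128 CPM or lower in all 7 libraries at 6 weeks, and at 14 weeks 256 CPM in mouse 5 and 51.6 to 77.2 CPM in the other 5. Its log2 fold change was -0.22 (SE 0.31, adjusted p 0.644), and it was -0.78 (adjusted p 0.0375) without mouse 5. Whether the change of Fcgr2b differs between progressors and nonprogressors of batch 2 did not pass either (0.73, 95% interval -0.11 to 1.56, adjusted p 0.996), and differences between batches were not tested, because each table was scaled on its own. Fcer1g in progressors had a log2 fold change of 0.25 (adjusted p 0.344).

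**Figure D3:**
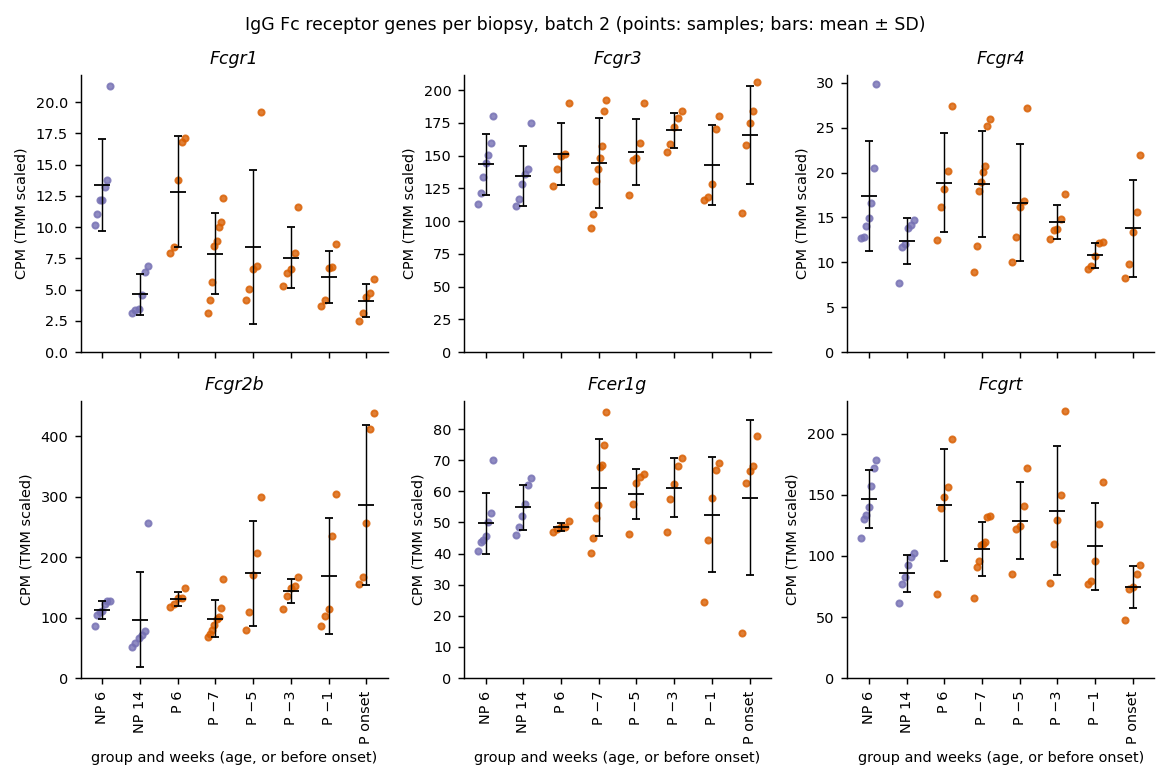
CPM (TMM scaled) of each gene in every batch 2 library; points are libraries of nonprogressor (NP) and progressor (P) mice at the ages or weeks before onset named on the horizontal axis, and bars are mean ± SD. Fcgr1 at 14 weeks in nonprogressors (3.13 to 6.87 CPM) lies below every 6-week library (10.1 to 21.3 CPM), and a single nonprogressor at 14 weeks, at 256 CPM, stands above the rest in Fcgr2b.

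Batch 2 had larger changes of cell markers. All 5 fibroblast markers were lower in both groups, and their sum lay between 29088 and 48350 CPM at 6 weeks and between 5090 and 26383 CPM later. All 4 adipocyte markers were higher in both groups, with at most 7.71 CPM in all at 6 weeks. Of 4 monocyte markers, Ly6c2, Plac8 and Ccr2 were lower in both groups. With 1 mouse left out at a time, Ccr2 held in 2 of 5 fits in progressors and in 6 of 7 in nonprogressors. Chil3, the other of the 4, passed in progressors, in a direction not given here, and held in 5 of 5 such fits. The summed monocyte markers were 110 to 135 CPM in nonprogressors at 6 weeks and 28.4 to 96.0 CPM at 14 weeks. Macrophage markers also passed: Csf1r in progressors, and C1qa, C1qb and Mrc1 in nonprogressors, with directions not given here. With 1 mouse left out at a time, Csf1r held in 5 of 5 fits. C1qa, C1qb and Mrc1 held in 1, 1 and 2 of 7. Across the 46 libraries Fcgr1 correlated with the summed monocyte markers at r = 0.68 and with fibroblast markers at r = 0.70, and across 73 libraries of batch 1 (without that of NOR mouse 5 at 18 weeks) at r = -0.18 and r = 0.31. These libraries share mice and times, the coefficients are descriptions, and the part of those cells in the level of Fcgr1 was not tested.

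At 7 weeks before onset, compared with 6 weeks of age, 0 of the 6 genes passed in progressors, beside 22.1% of all genes, with 1 member under an unadjusted p of 0.05 and 0 called by DESeq2. Fcgr1 was between 3.10 and 12.3 CPM in the 8 libraries (median 8.71), with a log2 fold change of -0.70 (SE 0.31, adjusted p 0.0988 by edgeR). Fcgrt had a log2 fold change of -0.42 (adjusted p 0.151), and of -0.61 (adjusted p 0.0459) without progressor 7.

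From 7 weeks before onset to the later times, 1 of the 6 genes passed, beside 3.11% of all genes higher and 8.22% in either direction. Fcgr2b was 68.2, 92.3 and 163 CPM at the lowest, median and highest of the 8 earlier libraries and 80.0, 162 and 438 CPM in the 20 later ones. Of the later libraries 10 exceeded all 8. A log2 fold change of 0.92 was found (SE 0.25, adjusted p 0.0167). It was 0.95 with adjusted p 0.152 when the mouse was a block, 0.90 with adjusted p 0.177 without the 4 mice of batch 1, and 0.86 and 0.76 with adjusted p of 0.0525 and 0.0682 without progressors 6 and 7. Fcgr1 had a log2 fold change of -0.33 (adjusted p 0.416 by edgeR). In the same comparison the macrophage markers Adgre1, Mertk and Mrc1 passed, among other markers, with directions not given here. With 1 mouse left out at a time they held in 6, 3 and 4 of 9 fits. Fcgr2b correlated with summed macrophage markers at r = 0.15 in batch 1 and 0.75 in batch 2, and their part was not tested.

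Onset was compared with 5 weeks before it in each batch. In batch 2, 1 of the 6 genes passed, beside 7.16% of all genes lower and 10.6% in either direction. Fcgrt was 141, 122, 172, 85.2 and 125 CPM 5 weeks before onset and 85.4, 47.9, 74.6, 92.5 and 73.0 CPM at onset (mice 10, 6, 7, 8 and 9). It was lower at onset in 4 of 5 mice, the exception being mouse 8, with a log2 fold change of -0.79 (SE 0.24, adjusted p 0.0259 by edgeR). With the mouse as a block it was -0.80 (adjusted p 0.0693), and without progressors 6, 7 and 9 adjusted p was 0.0757, 0.0840 and 0.0559. In the same comparison 4 of 5 endothelial, 4 of 5 fibroblast and 4 of 5 mast cell markers were lower, and their part was not tested. With 1 mouse left out at a time, Pecam1, Cdh5, Kdr and Col1a2 held in 1, 1, 2 and 0 of 5 fits. The others (Tek, Dcn, Lum, Pdgfra, Cma1, Cpa3, Mcpt4 and Tpsb2) held in 5 of 5. In batch 1, Fcgrt was higher at onset in 4 of 5 mice, at 92.9, 140, 45.9, 112 and 76.1 CPM against 78.4, 52.4, 47.5, 57.6 and 48.1 CPM in mice 1 to 5. Its log2 fold change there was 0.71 (SE 0.27, adjusted p 0.160), the opposite direction of batch 2.

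Fcgr1 was 4.17, 6.64, 5.03, 19.2 and 6.91 CPM 5 weeks before onset in batch 2 and 5.81, 4.44, 2.49, 3.14 and 4.74 CPM at onset, in the same order of mice. The log2 fold change was -1.03 (SE 0.35, adjusted p 0.0546), and it was -0.36 (adjusted p 0.630) without progressor 8 and -1.34 (adjusted p 0.0205) without progressor 10. In batch 1 it was -0.42 (adjusted p 0.588). Fcgr2b in batch 2 had a log2 fold change of 0.72 (SE 0.36, adjusted p 0.191), and Fcgr4 one of -0.27 (adjusted p 0.565). In batch 1, 0 of the 6 genes passed in edgeR's test (1.03% of all genes), 3 were under an unadjusted p of 0.05 and DESeq2 called 1. That 1 was Fcgr4, which was 14.7, 20.1, 17.6, 18.2 and 14.4 CPM 5 weeks before onset and 10.0, 5.54, 12.9, 9.45 and 8.93 CPM at onset. Every mouse was lower at onset and the times did not overlap. The log2 fold change was -0.87 (SE 0.25, adjusted p 0.0698), and -0.85 (adjusted p 0.0166) in DESeq2.

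Later libraries of progressors (5 weeks before onset to onset) were compared with those of nonprogressors, summed per mouse. The nonprogressors were 10 to 22 weeks of age in batch 1 and 14 weeks in batch 2. Ages were not matched exactly, so age and outcome cannot be told apart in this comparison. In batch 1, 0 of the 6 genes passed (0% of 22453 genes), with log2 fold changes between -0.10 and 0.11, 0 members under an unadjusted p of 0.05 and 0 called by DESeq2. In batch 2, 0 passed (0.0197% of 20307 genes), 2 were under an unadjusted p of 0.05 and DESeq2 called 0. Fcgr2b had a log2 fold change of 0.98 (SE 0.38, adjusted p 0.348 by edgeR), and nonprogressor 5 decided this value. Without that mouse it was 1.56 (adjusted p 0.000764), and that of Fcgr3 went from 0.21 (adjusted p 0.434) to 0.31 (adjusted p 0.0318). Nonprogressor 5 was also the highest of the 7 mice at 6 weeks in Fcgr1, Fcgr3, Fcgr4 and Fcer1g.

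Because the inhibitory Fcgr2b and the activating receptors set opposing signals, the ratio of counts within a library was compared as well, which does not depend on scaling. Counts were not divided by length here, so a ratio is read only against the same ratio in other libraries. In batch 1 the mean log2 ratio of Fcgr3 to Fcgr2b was 0.84 ± 0.59 (SD, n = 4) in NOR mice at 6 weeks and -0.59 ± 0.24 (n = 5) at 22 weeks. It was 0.89 ± 0.22 (n = 4) and -0.56 ± 0.57 (n = 4) at these ages in nonprogressors. In progressors it was 0.87 ± 0.46 (n = 5) at 6 weeks and -0.36 ± 0.63 (n = 5) at onset. The mean was thus lower at the last time than at 6 weeks in all 3 groups of batch 1. In batch 2 it was 0.34 ± 0.17 (n = 7) and 0.71 ± 0.70 (n = 6) at 6 and 14 weeks in nonprogressors, and 0.20 ± 0.19 (n = 5) at 6 weeks and -0.69 ± 0.63 (n = 5) at onset in progressors. These changes with time are given as levels and were not tested.

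**Figure D4:**
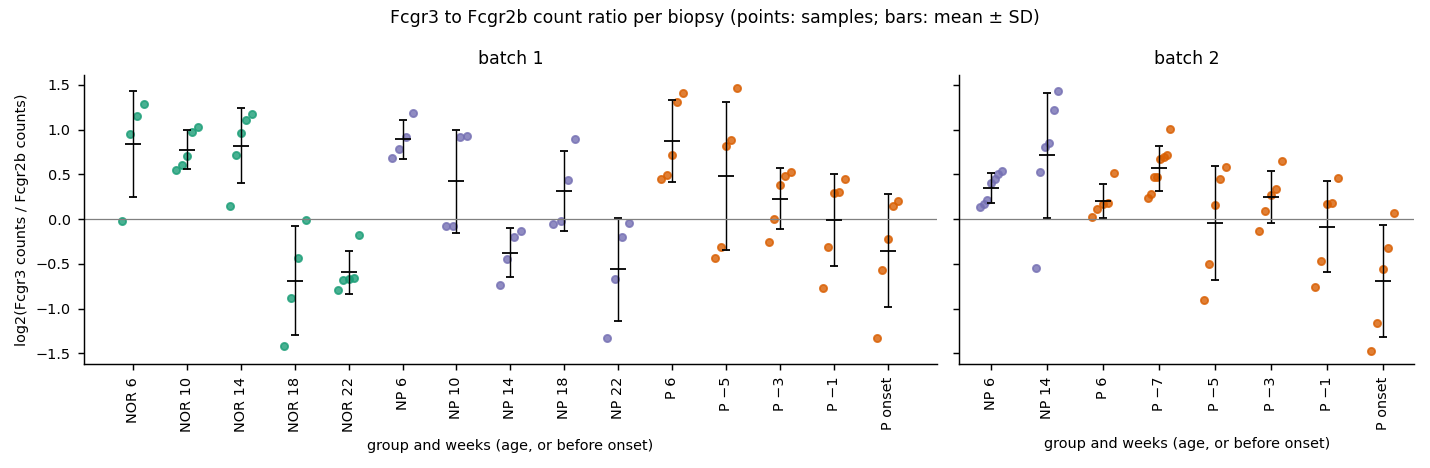
Log2 ratio of Fcgr3 to Fcgr2b counts in every library linked to a mouse, by group and time, in each batch; points are libraries and bars are mean ± SD. The ratio lies near 0.84 to 0.89 on average at 6 weeks in batch 1 and below 0 in most libraries at 22 weeks and at onset.

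Between groups of mice the ratios were tested with exact two-sided permutation tests, 20 in all for 4 ratios, and 0 passed after Benjamini-Hochberg adjustment. The log2 ratio of Fcgr3 to Fcgr2b differed by -0.14 between NOD and NOR mice (exact permutation p = 0.367, n = 9 and 5), by -0.02 and -0.14 between progressors and nonprogressors at 6 weeks (exact p = 0.937 and 0.181 in batches 1 and 2) and by 0.11 late in batch 1 (exact p = 0.587). Late in batch 2 it was -0.08, -0.11, -0.73, -0.23 and -0.21 in progressors 10, 6, 7, 8 and 9. In nonprogressors 10 and 6 to 9 it was 1.43, 0.53, 0.85, 0.81 and 1.22, and in nonprogressor 5 it was -0.55. All progressors were thus below 5 of the 6 nonprogressors. Ages were not matched exactly between these groups, and the part of age was not tested. The difference of -0.99 had an exact permutation p of 0.0216 (adjusted p 0.390, smallest possible p 0.00216), and without nonprogressor 5 the exact p was 0.00794, the smallest that 5 against 5 mice can give (adjusted p 0.159). The ratio of Fcgr4 to Fcgr2b differed by -1.05 (exact p = 0.0390, adjusted p 0.390) and that of Fcer1g to the 3 activating receptors by -0.17 (exact p = 0.106) in the same mice.

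The ligands and signaling partners of the receptors were listed as 32 genes in 5 lists: IgG heavy chains, other Fc receptors, activating signaling, inhibitory signaling, and B2m. Fcamr did not pass the filter on low counts in any comparison. The 4 IgG heavy chains rose in progressors of batch 2. Ighg1 was 0.0751, 0.196 and 0.510 CPM at the lowest, median and highest of 5 libraries at 6 weeks and 0.685, 10.4 and 142 CPM in the 20 later ones. The groups did not overlap, and the log2 fold change was 6.52 (SE 1.48). Its 6-week level rests on 48 counts in all. Ighg2b (6.44, SE 1.45) and Ighg2c (4.05, SE 1.05) rose from 15 and 44 counts in 5 libraries, and Ighg3 (7.51, SE 2.07) from 6 counts, so their sizes are loosely determined. Ighg1 also passed as higher in progressors (4.84, SE 1.56) and nonprogressors (5.55, SE 1.78) of batch 1, where its value in NOR mice was as large (4.94, SE 1.73) but did not pass (adjusted p 0.499), in nonprogressors of batch 2 (5.99, SE 1.41), and in progressors of batch 2 between 6 weeks and 7 weeks before onset (5.27), where Ighg3 rose too (6.01). Ighg2b rose further after 7 weeks before onset (2.92). At onset Ighg2c fell by 5.58 on the log2 scale in batch 2, from a median of 5.05 to 0.835 CPM. Ighg2b rose at onset in batch 1 (6.02), from a median of 0.0592 to 2.49 CPM. With 1 mouse left out at a time, the Ighg2c call held in 4 of 5 fits and the Ighg2b call in 1 of 5. Ighg3 had 208 counts in 4 nonprogressors and 1 count in 4 NOR mice at 18 weeks, a difference past the threshold (adjusted p 0.0316 by edgeR) that did not pass without NOR mouse 5 (adjusted p 0.0518). The plasma cell markers Sdc1, Mzb1 and Jchain (3 of 4) and 3 of 5 B cell markers were higher in progressors of batch 2 as well, and their part was not tested.

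Of 10 genes of activating signaling, 4 passed as higher in progressors of batch 2, beside 34.1% of all genes in either direction: the kinases Syk (log2 fold change 0.34) and Btk (0.29), the exchange factor Vav1 (0.38) and the adaptor Lat2 (0.31). Syk also rose in nonprogressors of batch 2 (0.30) and, with Btk, by 7 weeks before onset (0.37 for each), and Lat2 in progressors of batch 1 (0.36). The Src-family kinase Fgr was lower in nonprogressors than in NOR mice at 18 weeks (-1.06, and -1.27 without the library of NOR mouse 5). Of 5 genes of inhibitory signaling, the adaptor Dok2 (0.61) and the ubiquitin ligase Cblb (0.53) rose in nonprogressors of batch 1, and Cblb (0.30) rose in progressors of batch 2 after 7 weeks before onset. Inpp5d, the phosphatase that acts below Fcgr2b, was lower in NOD than in NOR mice (-0.19, SE 0.04, adjusted p 0.0096 by edgeR) and higher in progressors of batch 2 later than at 6 weeks (0.29).

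Among the 12 other Fc receptors, Fcrl5 of B-lineage cells rose in progressors of batch 2 (2.41, and 1.45 against 7 weeks before onset) and in nonprogressors of batch 1 (1.84), and the IgM receptor Fcmr rose in progressors of batch 2 (2.60). Trim21, a cytosolic IgG receptor, was lower in NOD than in NOR mice (-0.27) and fell in batch 2 in progressors (-0.39) and nonprogressors (-0.45). The IgE receptor chains Fcer1a and Ms4a2, which use Fcer1g in mast cells and basophils, had 1 count each in 4 nonprogressors and 96 and 118 counts in 5 NOR mice at 22 weeks (adjusted p 0.0056 and 0.0016 by edgeR), and were lower at onset in batch 2 (-2.67 and -3.20). The low-affinity IgE receptor Fcer2a was higher in nonprogressors at 22 weeks (1.45), and Pigr, which carries polymeric IgA and IgM across epithelia, rose in nonprogressors of batch 2, from 1 count in 7 libraries to 103 counts in 6. B2m was lower at onset than 5 weeks before it in batch 1 (-0.58). Of the 42 calls of genes of these lists, 15 held in every fit that left out 1 mouse: B2m and Inpp5d between strains, Fcer1a and Ms4a2 at 22 weeks, the 4 IgG heavy chains, Syk, Vav1 and Fcrl5 in progressors of batch 2, Ighg1 between 6 weeks of age and 7 weeks before onset, Fcrl5 between 7 weeks before onset and the later times, and Ighg1 and Pigr in nonprogressors of batch 2. The other 27 were lost in at least 1 such fit, among them Ighg1 and Lat2 in batch 1, with adjusted p of up to 0.0700 and 0.211 in progressors. No gene of the 5 lists passed in the comparisons of progressors with nonprogressors at 6 weeks or late, in the differences of change between groups, or over time in NOR mice.

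Other markers moved over time in batch 2. All 4 T cell markers were higher later in progressors, and 2 of 4 in nonprogressors. Of neutrophil markers 3 of 6 tested and of NK cell markers 2 of 4 were higher in progressors, and all 4 skeletal muscle markers were higher in nonprogressors at 14 weeks. Beside these, 34.1% of all genes passed in progressors and 29.1% in nonprogressors, in either direction. With 1 mouse left out at a time, Csf3r held in 1 of 5 and Eomes in 0 of 5 fits in progressors, and Cd3e in 1 of 7 in nonprogressors. At onset in batch 2, 2 of 4 dendritic cell, 3 of 4 monocyte and 1 of 2 tested eosinophil markers were lower than 5 weeks before, beside 7.16% of all genes. The part of these cells in the levels of the receptors was not tested.

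Across libraries, Fcgr3 and its signaling chain Fcer1g were the most alike of the 6 genes by the lower of the 2 batch correlations, with r = 0.74 in batch 1 (73 libraries) and 0.63 in batch 2 (46). The 18-week library of NOR mouse 5 is left out of the batch 1 values here, a choice made after seeing the data, and the libraries share mice, times and depth, so that the coefficients of log2 CPM are descriptions. Fcgr2b and Fcgr3, which share transcript sequence, had r = 0.57 and 0.61. Fcgr1 and Fcgr4 had r = 0.35 and 0.63, and r = 0.80 in batch 1 with that library, in which both are at 0. Fcgr3 and Fcgr4 had r = 0.50 and 0.36, Fcgr1 and Fcgrt 0.22 and 0.51, and Fcgrt and Fcer1g -0.45 and 0.08. Fcgr2b and Fcgr1 had r = -0.41 and -0.17.

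Likeness to other genes was measured as the lower of the 2 batch correlations over 15263 genes. With all 74 libraries of batch 1, the genes most like Fcgr1 were Ms4a6c (0.89), Oas1a (0.85) and Ifi211 (0.84), and those most like Fcgr4 were Tdrd7 (0.76), H2-T22 (0.72) and Casp1 (0.72). Fcgr2b was most like Fndc3a (0.88), Runx3 (0.85) and Pik3r6 (0.85), and Fcgr3 like the lysosomal protease gene Lgmn (0.83), Gm49339 (0.80) and Esd (0.78). Fcer1g was most like Bax (0.80), Trappc2l (0.79) and the phagocyte oxidase gene Cyba (0.75), and Fcgrt like the ficolin gene Fcna (0.81), the complement gene C4b (0.81) and the lectin gene Clec10a (0.80). Without the 18-week library of NOR mouse 5, 7 of these 18 names remained: Ms4a6c (0.75), Fndc3a (0.88), Runx3 (0.86), Gm49339 (0.85), Lgmn (0.81), Bax (0.78) and Trappc2l (0.78). The first genes were then Fabp5 for Fcgr4 (0.77), Cstb for Fcer1g (0.79) and Ap2a2 for Fcgrt (0.83). With summed macrophage markers the correlation was 0.57 and 0.79 for Fcgr3, 0.45 and 0.49 for Fcer1g, 0.15 and 0.75 for Fcgr2b, 0.41 and 0.16 for Fcgr4, 0.30 and 0.10 for Fcgr1 and 0.16 and 0.33 for Fcgrt, over 73 and 46 libraries.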

How the data were processed

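RNA of 120 IN biopsies was sequenced in 2 batches. Per the labels and the study's methods, the authors made total RNA libraries after ribosomal depletion. The submitters' processing notes name cutadapt, FastQC, STAR, RSEM, MultiQC and GRCm38; the annotation release and strand setting are not given in the sources used here. Each deposited table (1 per batch) holds the authors' estimated counts per gene, as described by the labels and the study's methods, in whole numbers and not normalized, with 55492 and 55491 entries including 5 and 4 reporter sequences (at most 2.84e-06% of a library), which were left out.

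Groups came from the labels. edgeR 4.0.16 (R 4.3.3) with TMM scaling, its filter on low counts and the quasi-likelihood test was fitted to all genes, on counts summed per mouse for the comparison of strains and of late groups and on single libraries otherwise, with Benjamini-Hochberg adjustment and a threshold of 0.05. In tests on single libraries, all groups of a batch shared 1 estimate of the spread per gene. CPM used TMM scaling, and RPKM used exonic lengths of GENCODE M21 (55141 of 55487 identifiers matched). Ratios took 0.5 added to each count and exact permutation tests over mice (scipy 1.17.1). Intervals are 95%. The log2 CPM used for correlations had a prior count of 2, and likeness was sought among genes with a mean CPM of at least 1. The 6 genes, the 5 pathway lists and the 15 marker lists were chosen with earlier results of these data known. All 6 genes were followed in every comparison, pathway genes were named where they passed the threshold, neighbors were counted within 500 kb and named where they passed between strains, and the 3 genes most like each member were named. Marker genes were named after their values were seen. Marker lists covered macrophages, monocytes, neutrophils, eosinophils, B, plasma, T, NK, mast and dendritic cells, endothelium, adipocytes, fibroblasts, keratinocytes and skeletal muscle.

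Alternatives were DESeq2 1.42.0, its size factors, library totals alone, no filter, the mouse as a block and each mouse left out. Repeated biopsies of a mouse share its number in the labels, so the block pairs samples by animal. Deviations of same-mouse samples from their group means had mean correlations of 0.0136 in NOR, 0.0250 in nonprogressors and -0.0275 in progressors of batch 1, and -0.115 and -0.00329 in nonprogressors and progressors of batch 2, over 2000 genes. Tests over single libraries treat biopsies of 1 mouse as separate samples. All 239 pairs of replicates differed by more than counting error, with chi-square at least 11.0 times its degrees of freedom. The scripts were tested on simulated data.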

Additional observations from a re-analysis of the deposited data

Results flagged for a closer look

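Within groups of 4 to 10 libraries, 138 tests for a sample far from the others (Dixon's criterion) marked 16, where chance marks about 1 in 20 groups. All are given as CPM, with the range of the other libraries of that group. In NOR mice at 6 weeks, mouse 4 had 188 of Fcgr2b (others 45.8 to 63.4) and 186 of Fcgr3 (111 to 123). At 10 weeks, Fcer1g was 63.8 in NOR mouse 3 (57.8 to 59.2), Fcgr1 was 5.05 in mouse 4 (3.92 to 4.24) and Fcgrt was 68.8 in mouse 5 (83.7 to 87.0). Fcgr2b in NOR mouse 2 was 156 at 14 weeks (66.9 to 86.0) and 287 at 22 weeks (173 to 205), and Fcgr4 in NOR mouse 4 was 13.6 at 22 weeks (6.05 to 7.10).

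Nonprogressor 5 of batch 2 stood out 3 times, with 69.9 of Fcer1g (others 41.0 to 53.1) and 21.3 of Fcgr1 (10.1 to 13.8) at 6 weeks and 256 of Fcgr2b (51.6 to 77.2) at 14 weeks. In batch 1, Fcer1g was 59.5 in nonprogressor 1 at 18 weeks (49.0 to 49.7). In progressors of batch 1, Fcgr2b was 364 in mouse 3 at onset (116 to 173) and Fcgrt was 121 in mouse 5 at 3 weeks before onset (44.0 to 61.1). In progressors of batch 2, Fcgr1 was 19.2 in mouse 8 at 5 weeks before onset (4.17 to 6.91), and Fcer1g was 14.6 in mouse 9 at onset (62.8 to 77.8), where Fcgr3 of that mouse was 106 (158 to 206 in the others).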

How the results depend on the processing

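Of 1770 values of the 6 genes under alternatives, 34 changed their side of the threshold and 109 their sign, the latter 0 times for a value past it. Scaling by library totals alone left 1 of the 6 genes past the threshold over time in progressors and 1 in nonprogressors of batch 1 (3 each otherwise) and gave 2 at onset in batch 2; it shifted the median of all genes by up to -0.49 (nonprogressors against NOR mice at 22 weeks). DESeq2 gave 1 at onset in batch 1 and 2 in batch 2. With the mouse as a block, 0 passed at onset in batch 2 and 0 after 7 weeks before onset, as did 0 there without the samples of mice 1 to 4. No other count of calls was moved by the block. Leaving out 1 mouse gave 0 to 1 of 6 for nonprogressors against NOR mice at 22 weeks, 1 to 3 over time in nonprogressors and 2 to 3 in progressors of batch 1, 1 to 2 in progressors and 2 to 3 in nonprogressors of batch 2, 0 to 1 at 7 weeks before onset, 0 to 1 after it, 0 to 2 at onset in batch 2 and 0 to 2 for late progressors against nonprogressors in batch 2. The cause was not tested. Of the 177 calls of marker genes over all comparisons, 90 held in every fit that left out 1 mouse.

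Signs turned in values that passed no test. Between strains, Fcgr4 was 0.0222 with each sample entered separately and Fcgrt 0.28 with 6-week samples only; with each mouse left out Fcgr1 ran from -0.00879 to 0.10, Fcgr2b from -0.13 to 0.10 and Fcgr4 from -0.0710 to 0.00959. With library totals alone Fcgrt over time in NOR mice was -0.00844, and the difference of change of Fcgr2b between progressors and nonprogressors of batch 1 was 0.10 (-0.40 to 0.11 with each mouse left out). Fcgr4 at onset in batch 2 ran from -0.51 to 0.0148, and the ratio of Fcgr3 to Fcgr2b at 6 weeks in batch 1 from -0.15 to 0.0888. Fcgr1, near 4 CPM in most of batch 1, and IgG transcripts at 6 weeks are the values that depth limits most.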

Other observations

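In batch 1, 6 nonprogressor libraries carry a day after implantation in place of an age, and entered no test. Their labels number the mice 1 and 2, and whether these are nonprogressors 1 and 2 of the age series was not assumed. At 31, 38 and 108 days, with 2 libraries each, Fcgr2b was 120 and 96.3 CPM, 62.4 and 51.3 CPM, and 88.7 and 110 CPM. Fcgr3 was 134 and 127 CPM, 104 and 100 CPM, and 110 and 137 CPM at these times. Fcer1g lay between 50.1 and 56.6 CPM in all 6. Fcgr1 was 6.38 and 7.43 CPM, 3.73 and 2.70 CPM, and 4.61 and 4.42 CPM. Fcgr4 lay between 8.28 and 13.5 CPM, and Fcgrt between 50.8 and 102 CPM. The libraries at 38 days held the lowest values of Fcgr2b and Fcgr3 among the 6.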
